A study of Mus musculus with 15 samples.

Results

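Spermatogonia lacking Akt1s1 were compared with wild-type spermatogonia at 7 days post partum (dpp) by RNA sequencing of cells sorted for green fluorescence. The 3 knockout (KO) libraries, numbered 4, 5 and 6 in their titles, came from Akt1s1 null mutant mice, and the 2 wild-type (WT) libraries, numbered 2 and 3, from mice with intact Akt1s1. Mice of both genotypes carried a GFP transgene driven by the promoter of Pou5f1, which encodes the germ cell factor OCT4, and the sort kept GFP-positive cells from enzyme-dispersed testes. The series also holds 2 KO and 3 WT libraries at 3 dpp and 3 KO and 2 WT libraries from adults of 2 to 3 months, which are used below to follow the genes found at 7 dpp. A gene was included if its signal was at least 1 in at least 2 of the 5 libraries of 7 dpp, which held for 15237 of 27128 gene names in the files. The labels give neither the deleted part of Akt1s1 nor the strain background of either genotype. Whether replicate libraries derive from different animals is not stated either, so p-values describe library-to-library spread only, part of which may be technical.

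Akt1s1 encodes PRAS40, a subunit of the kinase complex mTORC1. PRAS40 binds raptor and holds mTORC1 back until growth factor signals through AKT lead to its phosphorylation and release. Active mTORC1 promotes translation, ribosome and lipid synthesis and restrains autophagy. In the testis, mTORC1 activity goes with the passage of spermatogonia from the undifferentiated state, which contains the stem cells, to differentiation towards meiosis. At 7 dpp the seminiferous tubules of the mouse hold undifferentiated and early differentiating spermatogonia beside Sertoli cells, and meiosis has hardly begun.

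The deposited signal behaves as TPM (transcript abundance scaled for transcript length and library size) with 2 decimals, multiplied by a single factor per library. The libraries of 7 dpp each had 14515 to 14878 genes with a signal of 1 or more, their 10 most abundant genes took 5.4% to 6.71% of the total, and the depth is unknown. Across genes, pairs of these libraries correlated with r from 0.9804 to 0.9893. KO 4 stood apart from KO 5 and KO 6. On the first principal component (32.5% of the variance) KO 4 lay at -17.8, KO 5 at 29.9 and KO 6 at 16.9, against -27.5 and -1.5 for WT 2 and WT 3. On the second (31.8%) the KO libraries lay at -34.4, 1.4 and -9.4, against 16.6 and 25.8 for the WT libraries. Germ cell transcripts were high in all 5 libraries, with Ddx4, an RNA helicase of germ cells, at 458, 517 and 489.7 in KO 4, 5 and 6 and at 509 and 503 in WT 2 and 3. Transcripts of 19 Sertoli cell genes were present too, with a summed signal of 2474, 1525 and 1751 in KO and 1732 and 1163 in WT.

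Akt1s1 itself (chromosome 7, 44849224 to 44855421, GRCm38) had a signal of 39.8, 39.5 and 37.2 in KO 4, 5 and 6, against 54.5 and 72.9 in WT 2 and 3. All KO libraries lay below both WT libraries, but transcript remained in each of them, and without the position of the deletion the level does not check the allele. On the log2(signal + 1) scale, used for all differences below, Akt1s1 fell by 0.69 ± 0.10 (SE, limma adjusted p = 0.0169). The call was lost without WT 3 (adjusted p = 0.13), KO 5 (0.0531) or KO 6 (0.0887), and in a fit of the 5 libraries alone (0.304). Pou5f1, whose promoter drives the sorting marker, had a signal of 514, 255 and 629.8 in KO, against 550.3 and 945 in WT. These ranges overlapped, and the difference of -0.73 ± 0.38 did not pass (adjusted p = 0.716).

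Few other genes passed at 7 dpp. With limma and Benjamini-Hochberg adjustment over 17746 genes, 28 genes passed an adjusted p of 0.05, or 0.158% of those tested. Of these, 18 were higher in KO (0.101%) and 10 lower (0.0564%). The KO and WT libraries did not overlap for any of the 28, and 20 differed by at least 2-fold. The median difference over the 15237 genes was 0.00, with 50.8% of them above 0, the median size of a difference regardless of sign was 0.13, and the unadjusted p was below 0.05 for 1328 genes (7.48%). The count of 28 was sensitive to single libraries: it was 105 without KO 4, 18 without WT 2, 19 without KO 5 and 13 without either WT 3 or KO 6. It was 17 without the mean-variance trend of the fit and 176 with estimated library weights. Those weights rested mostly on 1 KO library of 7 dpp, at 6.81 for KO 6 beside 0.43 for KO 4 and 0.598 for KO 5. The split into higher and lower genes was not stable either, although no single difference that passed changed sign. With no minimum signal, 10 of the genes that passed were higher in KO and 16 lower. The split was 8 and 9 without the trend, 6 and 7 without WT 3, and 9 and 10 without KO 5. Of the 28 genes, 21 had an established name and 7 were provisional models.

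**Figure D1:**
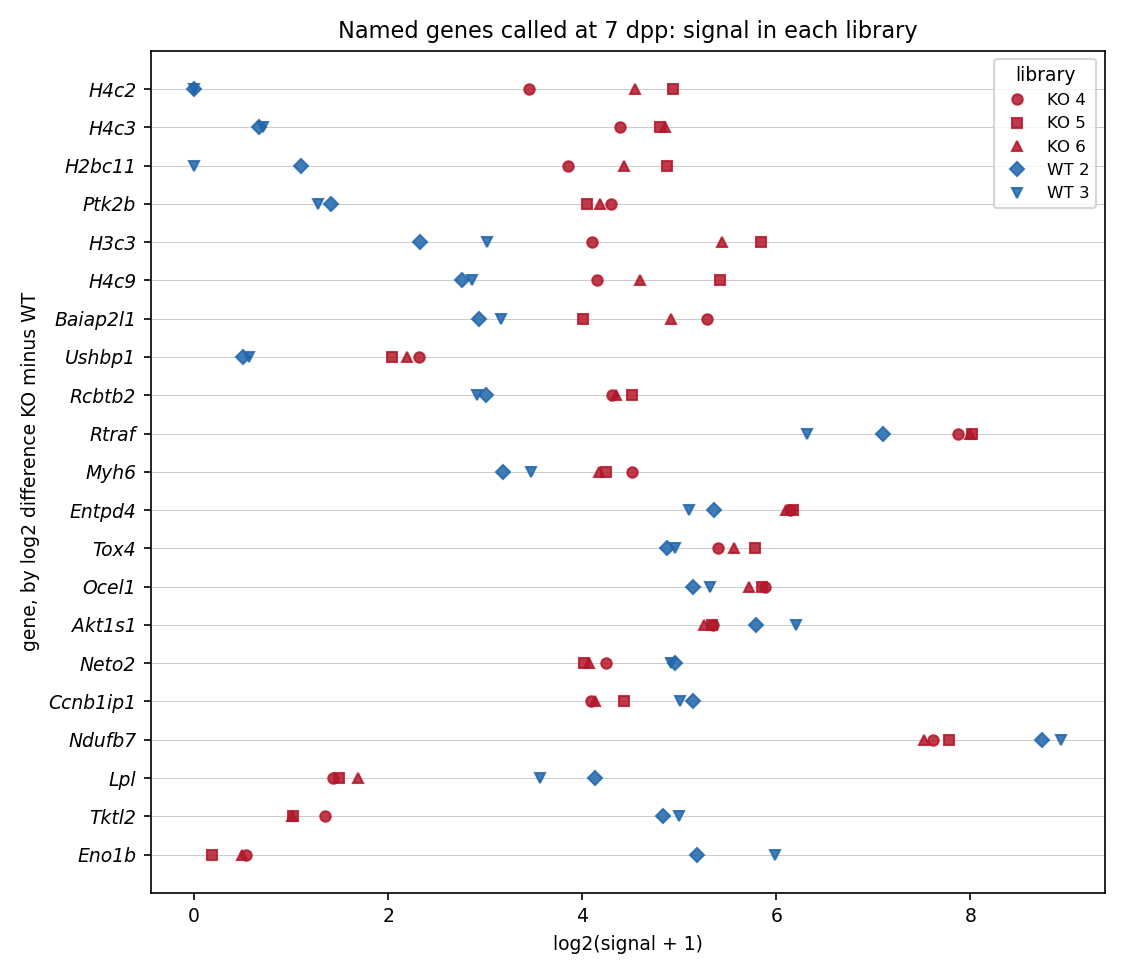
Signal of the 21 named genes that passed at 7 dpp, on a log2(signal + 1) axis, with a point for each KO library (red) and each WT library (blue) and genes ordered by the difference between KO and WT. In each row the red and blue points do not overlap; Eno1b and Tktl2 lie far left in KO, and the histone genes H4c2, H4c3 and H2bc11 lie near 0 in WT.

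The largest losses among the named genes were those of Eno1b, Tktl2, Lpl and Ndufb7. Eno1b encodes an enolase-like glycolytic enzyme and is a near copy of Eno1. Its signal was 0.446, 0.14 and 0.41 in KO, against 35.4 and 62.5 in WT. It was thus almost gone from every KO library, and fell by 5.18 ± 0.30 (limma adjusted p = 1.07e-06). Tktl2, a transketolase-like gene related to an enzyme of the pentose phosphate pathway, had 1.54, 1.02 and 1.01 in KO, against 27.4 and 30.9 in WT. No KO library came near the WT level, and Tktl2 fell by 3.79 ± 0.21 (adjusted p = 8.16e-07). Lpl, the lipoprotein lipase that releases fatty acids from circulating triglycerides, had 1.70, 1.82 and 2.23 in KO, against 16.5 and 10.8 in WT. Lpl fell by 2.31 ± 0.28 (adjusted p = 0.00191, and 0.0663 without WT 2). Ndufb7, an accessory subunit of mitochondrial complex I, was a highly expressed gene at less than its WT level, with 195, 219 and 183 in KO and 427 and 490 in WT. It fell by 1.20 ± 0.08 (adjusted p = 7.94e-06).

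The other named genes that fell were Neto2 and Ccnb1ip1. Neto2 encodes an auxiliary subunit of kainate receptors, and its signal was 18.02, 15.2 and 15.8 in KO and 29.98 and 29.2 in WT, a difference of -0.82 ± 0.13 (limma adjusted p = 0.0179). Ccnb1ip1 encodes HEI10, a ubiquitin ligase needed for meiotic crossovers. Its signal was 16.0, 20.6 and 16.5 in KO and 34.2 and 31.1 in WT, a difference of -0.86 ± 0.13 (adjusted p = 0.0173). Both were low in all KO libraries, but neither call was stable: Neto2 lost it without WT 2, WT 3, KO 5 or KO 6 (adjusted p = 0.0729 to 0.199), and Ccnb1ip1 without WT 2, WT 3 or KO 6 (0.0887 to 0.227).

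Among the genes that rose, Ptk2b had the largest log2 difference of the named genes outside the histones. It encodes PYK2, a tyrosine kinase of the focal adhesion kinase family that responds to calcium and stress signals. Its signal was 18.6, 15.6 and 17.2 in KO, against 1.65 and 1.43 in WT. The gene was close to silent in both WT libraries and rose by 2.83 ± 0.22 (limma adjusted p = 2.44e-05). Rcbtb2, a protein with RCC1-like repeats, had 18.8, 21.8 and 19.3 in KO and 7.07 and 6.52 in WT, and rose by 1.43 ± 0.17 (adjusted p = 0.00139). Entpd4, a nucleotide phosphatase of internal membranes, had 69.5, 71.4 and 67.6 in KO and 39.99 and 33.2 in WT, and rose by 0.91 ± 0.10 (adjusted p = 0.00107). These 3 genes, with Ndufb7, Eno1b and Tktl2, passed when any single library of 7 dpp was left out, and were the only ones of the 21 named genes to do so.

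Rtraf, Baiap2l1, Myh6, Tox4, Ocel1 and Ushbp1 rose as well. Rtraf, an RNA-binding factor of transcription and RNA ligation complexes, had 234, 258 and 254 in KO and 136 and 78.6 in WT (1.25 ± 0.20, limma adjusted p = 0.0228). Baiap2l1, which links membranes to the actin skeleton, had 38.1, 15.1 and 29.2 in KO and 6.64 and 7.98 in WT (1.69 ± 0.29, adjusted p = 0.0439). Its KO values differed widely among themselves, and KO 5 was the nearest to WT. Myh6, a myosin heavy chain of heart muscle, had 21.8, 17.9 and 17.1 in KO and 8.10 and 10.1 in WT (0.98 ± 0.16, adjusted p = 0.0284). Tox4, an HMG-box protein of a phosphatase complex, had 41.1, 53.9 and 46.5 in KO and 28.4 and 30.1 in WT (0.66 ± 0.11, adjusted p = 0.0339). The annotated span of Tox4 overlaps that of Mettl3 on the other strand, and whether the authors' counting used strand is not given in the sources used here. Ocel1, an occludin-domain protein, had 57.9, 56.7 and 51.7 in KO and 34.3 and 38.9 in WT (0.59 ± 0.10, adjusted p = 0.0339). Its neighbour Ushbp1, a protein that binds harmonin, was low in WT, with 3.98, 3.12 and 3.56 in KO and 0.421 and 0.482 in WT (1.65 ± 0.29, adjusted p = 0.0463). Each of these calls was lost in at least 3 of the 5 fits that left out a library. The adjusted p reached 0.192 for Rtraf without WT 3, and 0.394 for Baiap2l1, 0.373 for Myh6, 0.37 for Tox4, 0.394 for Ocel1 and 0.37 for Ushbp1 without WT 2; all 6 were also lost without WT 3 or KO 6. All but Baiap2l1 were lost without KO 5, and Ushbp1 was lost without KO 4 (0.058).

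A further 5 genes that rose were replication-dependent histone genes of chromosome 13. These genes supply histones during DNA replication, and their transcripts normally end in a stem-loop in place of a poly(A) tail. H4c2 had 9.92, 29.7 and 22.4 in KO, while WT 2 and WT 3 list it at 0 (limma adjusted p = 0.0173). H4c3 had 19.9, 26.9 and 27.97 in KO and 0.592 and 0.632 in WT, and rose by 3.99 ± 0.65 (adjusted p = 0.027). H2bc11 had 13.5, 28.4 and 20.5 in KO, against 1.15 and a listed 0 in WT (adjusted p = 0.0109). In each case KO 4 was the lowest KO library and still lay above both WT libraries. H3c3 had 16.1, 56.6 and 42.5 in KO and 4.02 and 7.08 in WT, and rose by 2.46 ± 0.41 (adjusted p = 0.0326). H4c9 had 16.8, 41.9 and 23.2 in KO and 5.77 and 6.30 in WT, and rose by 1.91 ± 0.34 (adjusted p = 0.0476). The 5 calls were kept without KO 4 (adjusted p = 0.0007 to 0.0296), and all were lost without WT 3, KO 5 or KO 6 (0.0583 to 0.233) and, except for H2bc11, without WT 2 (0.192 to 0.394). H4c2, H3c3, H4c9 and H2bc11 have copies of at least 90% identity over at least 50% of the transcript elsewhere in the clusters. H4c3 fell short of this measure, but matched Hist1h4a at 92.2% over 370 bases, or 45.0% of its transcript. The separate levels of all 5 genes are therefore uncertain.

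The histone list as a whole did not move in a single direction. Of 57 replication-dependent histone genes listed, 53 were found in the files and 35 were expressed above the minimum; 16 were higher and 19 lower in KO, with a median difference of -0.12 beside 0.00 over all genes. The 5 that passed were all higher. H2ac22, an H2A gene of the same chromosome, had 0, 0.882 and 0.758 in KO against 8.94 and 15.1 in WT, a difference of -3.09 ± 0.68 that did not pass (limma adjusted p = 0.125). The summed signal of the list was 229, 406 and 303 in KO and 166 and 297 in WT, and so overlapped.

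The promoters of the 5 histone genes that passed are shown because these genes lay together on the chromosome and moved the same way. Each line gives the 150 bases before the start of the gene in RefSeq GRCm38.p6, 5′ to 3′ on the gene's own strand, with matches to CCAAT or TATAAA on either strand in capitals. H4c2 lies at chr13:23756787-23756936 on the plus strand, H2bc11 at chr13:22043048-22043197 on the plus strand, H4c3 at chr13:23698459-23698608 on the minus strand, H3c3 at chr13:23745522-23745671 on the minus strand and H4c9 at chr13:22041363-22041512 on the minus strand.
H4c2: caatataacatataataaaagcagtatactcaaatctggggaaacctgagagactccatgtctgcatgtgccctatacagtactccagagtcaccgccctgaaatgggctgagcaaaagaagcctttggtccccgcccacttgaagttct
H2bc11: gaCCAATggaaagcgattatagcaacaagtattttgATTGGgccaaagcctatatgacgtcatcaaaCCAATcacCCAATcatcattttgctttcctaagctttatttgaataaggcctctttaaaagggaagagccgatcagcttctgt
H4c3: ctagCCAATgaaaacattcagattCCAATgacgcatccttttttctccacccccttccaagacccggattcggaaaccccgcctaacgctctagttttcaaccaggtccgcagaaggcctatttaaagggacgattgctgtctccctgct
H3c3: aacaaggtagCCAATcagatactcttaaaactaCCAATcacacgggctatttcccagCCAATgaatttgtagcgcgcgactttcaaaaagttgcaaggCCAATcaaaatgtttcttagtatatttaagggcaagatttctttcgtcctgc
H4c9: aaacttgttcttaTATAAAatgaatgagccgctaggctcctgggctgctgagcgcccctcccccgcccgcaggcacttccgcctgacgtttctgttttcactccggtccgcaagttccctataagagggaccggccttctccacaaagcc
H2bc11 and H3c3 held 4 matches to CCAAT each and H4c3 held 2; H4c9 held 1 TATAAA, and H4c2 held neither motif in these letters. Of 32851 mouse promoters of the same length, 24.5% held CCAAT and 7.57% held TATAAA. Of the 5 histone genes that passed, 3 held the first motif and 1 the other, against 22 and 11 of the 28 expressed histone genes that did not pass and have a promoter in the table. A match is a run of letters and not a shown site.

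The 7 provisional models that passed were mostly near-identical copies of other genes, and are named here after their values were seen. Among the models with an annotated position, the largest signals belonged to copies of Rpl21, which encodes a protein of the large ribosomal subunit. The pseudogene Gm10163 (chromosome 9) had 596, 522 and 790 in KO, against 4.68 and 5.67 in WT (6.67 ± 0.77, limma adjusted p = 0.00135). Rpl21-ps15 (chromosome X) ran the other way, with 1.10, 7.26 and 15.8 in KO against 1631 and 1553 in WT (-7.91 ± 0.63, adjusted p = 2.44e-05). The transcripts of these copies differed at 1 of 481 compared bases, G378A, with the Gm10163 base first and positions counted from 1 at the 5′ end of the transcript. The stretch of 101 bases around it, positions 328 to 428, is shown because this base is what separates them; it is in capitals.
Gm10163: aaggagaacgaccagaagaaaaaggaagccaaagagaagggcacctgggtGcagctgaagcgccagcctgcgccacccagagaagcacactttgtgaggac
Rpl21-ps15: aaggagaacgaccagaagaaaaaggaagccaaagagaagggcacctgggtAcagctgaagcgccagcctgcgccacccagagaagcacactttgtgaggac
Rpl21 itself (chromosome 5) had 26.7, 80.4 and 1.14 in KO, against 279.5 and 315 in WT; its difference of -4.14 ± 1.65 did not pass (adjusted p = 0.589). Summed over the 30 names in the files that match Rpl21 or a copy, the signal was 682, 669.7 and 862 in KO, against 1970.1 and 1951 in WT, or 738 ± 108 (SD, n = 3) and 1961 ± 13.3 (SD, n = 2). The sum was thus lower in KO but far less so than Rpl21-ps15. The transcript of Gm10163 matched 82 other genes, of which only part have a name in the files. Names without an annotated transcript could not enter the sum. The total signal of the family is therefore not known. The unannotated name LOC100041000 had 1646, 2072 and 2066 in KO, against 31.4 and 25.9 in WT (6.02 ± 0.27, adjusted p = 1.14e-07), and the files and annotation pair it with no gene. BC053440, which has no annotated position, had 21.8, 22.1 and 20.8 in KO, against 33.5 and 33.9 in WT (-0.62 ± 0.08, adjusted p = 0.00661).

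**Figure D2:**
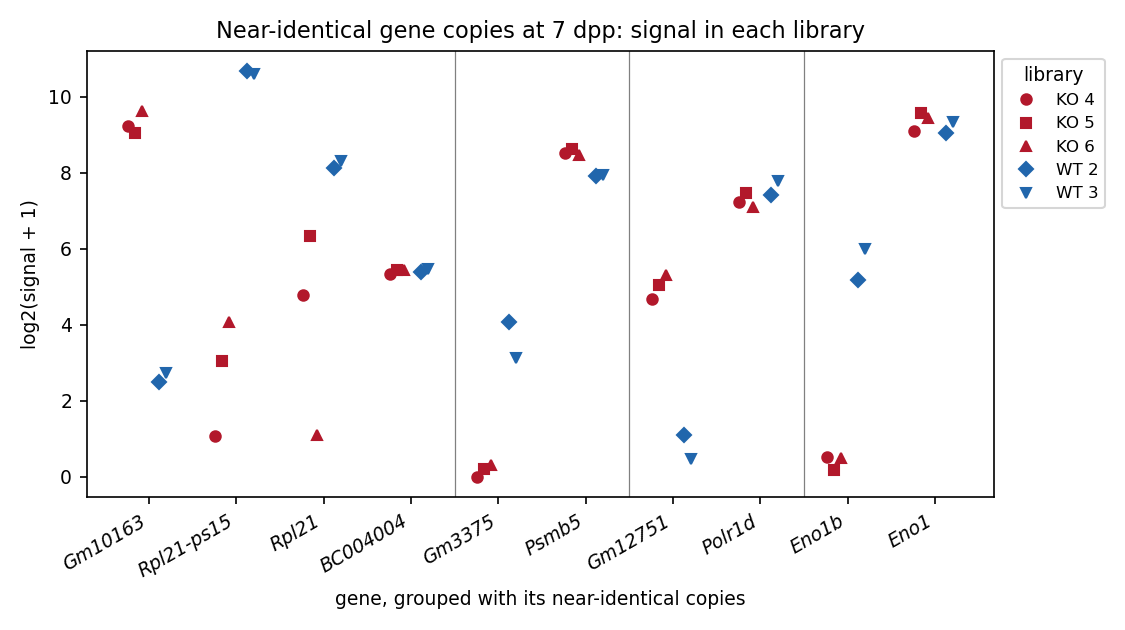
Signal in each library of 7 dpp, on a log2(signal + 1) axis, for 4 sets of near-identical genes separated by vertical lines, with KO libraries in red left of WT libraries in blue. Gm10163 and Gm12751 are high in KO and low in WT, Rpl21-ps15, Gm3375 and Eno1b are low in KO and high in WT, and Psmb5, Polr1d, Eno1 and BC004004 differ far less.

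Similar pairs were found for other models. Gm12751 matched Polr1d over all 381 of its bases at 100% identity, and had 24.4, 32.2 and 38.9 in KO against 1.13 and 0.386 in WT (4.23 ± 0.26, limma adjusted p = 1.85e-06). Polr1d, a subunit of RNA polymerases I and III, had 148, 177 and 136 in KO and 168 and 219 in WT, a difference of -0.32 ± 0.14 that did not pass (adjusted p = 0.63). Gm3375 matched Psmb5 at 98.9% of 796 bases, and had 0, 0.151 and 0.236 in KO against 15.7 and 7.75 in WT (-3.43 ± 0.34, adjusted p = 0.000332). Psmb5, a catalytic subunit of the proteasome on chromosome 14, had 367, 394 and 355 in KO and 241 and 243 in WT, a difference of 0.62 ± 0.13 that did not pass (adjusted p = 0.12). Gm2573 (chromosome 15) had 7.85, 4.0 and 6.98 in KO against 0.823 and 0.3 in WT (2.20 ± 0.31, adjusted p = 0.0106), and matched Wdr83os at 98.4% of 318 bases. Among the named genes, Eno1b matched Eno1 at 99.5% over 1652 bases. Eno1, the main enolase of most tissues, had 549.7, 764 and 695 in KO and 529.9 and 648 in WT, and the groups overlapped. The transcript of Entpd4 matched Entpd4b at 100% over 3589 bases, and that of Myh6 matched Myh7 at 91.7%. Ndufb7 matched Gm13171 at 91.1% over 381 bases, or 61.2% of its transcript. Rtraf fell short of the measure, but matched Gm10704 at 98.6% over 730 bases, or 46.7% of its transcript. Of the 28 genes, 26 had an annotated transcript, and 13 of these had a copy by this measure while 13 had none. Values of genes with a copy depend on how reads were shared between copies, so their separate levels are uncertain; Ptk2b, Tktl2, Lpl and Rcbtb2 had no such copy.

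Genes that passed at 7 dpp were followed in the libraries of the other ages, which share no library with the difference at 7 dpp. The fit gives each gene a single estimate of spread over all ages, so passing at another age is not independent of passing at 7 dpp. At 3 dpp all 28 differed in the same direction and 27 passed, beside 10.3% of all genes tested. Ccnb1ip1 was the exception, with a difference of -0.17 at 3 dpp (limma adjusted p = 0.443). In adults all 28 again differed in the same direction and 17 passed, beside 0.27% of all genes tested. The named genes that did not pass in adults were Baiap2l1, Lpl, Neto2, Ocel1, Ushbp1, Ccnb1ip1 and the histone genes H4c2, H4c3, H3c3 and H2bc11.

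The estimates of some genes varied over age, but only Ocel1 of the 28 passed for a change of effect. Ptk2b had 19.0 and 23.8 in KO against 2.94, 3.74 and 1.61 in WT at 3 dpp, and 13.0, 12.7 and 11.0 in KO against 1.23 and 0.867 in WT adults. Its log2 difference of 2.83 at 7 dpp stood beside 2.61 at 3 dpp and 2.69 in adults. Tktl2 had differences of -3.56 at 3 dpp, -3.79 at 7 dpp and -2.30 in adults. Lpl had 1.86, 1.72 and 2.12 in KO adults against 3.6 and 1.29 in WT adults, so that the groups overlapped there and its difference was -0.16, beside -2.67 at 3 dpp and -2.31 at 7 dpp. The change of the Lpl effect between 7 dpp and adults (2.14 ± 0.39) did not pass, with an adjusted p of 0.195. In limma, 0 of 17746 genes passed for a change of effect between 7 dpp and adults, where 2190 had an unadjusted p below 0.05 (12.3%). Between 3 and 7 dpp 355 genes passed (2.0%), and of the 28 only Ocel1 did. Ocel1 had 67.7 and 61.6 in KO against 22.4, 21.3 and 26.2 in WT at 3 dpp, and its effect was smaller by 0.85 ± 0.14 at 7 dpp (adjusted p = 0.0176).

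**Figure D3:**
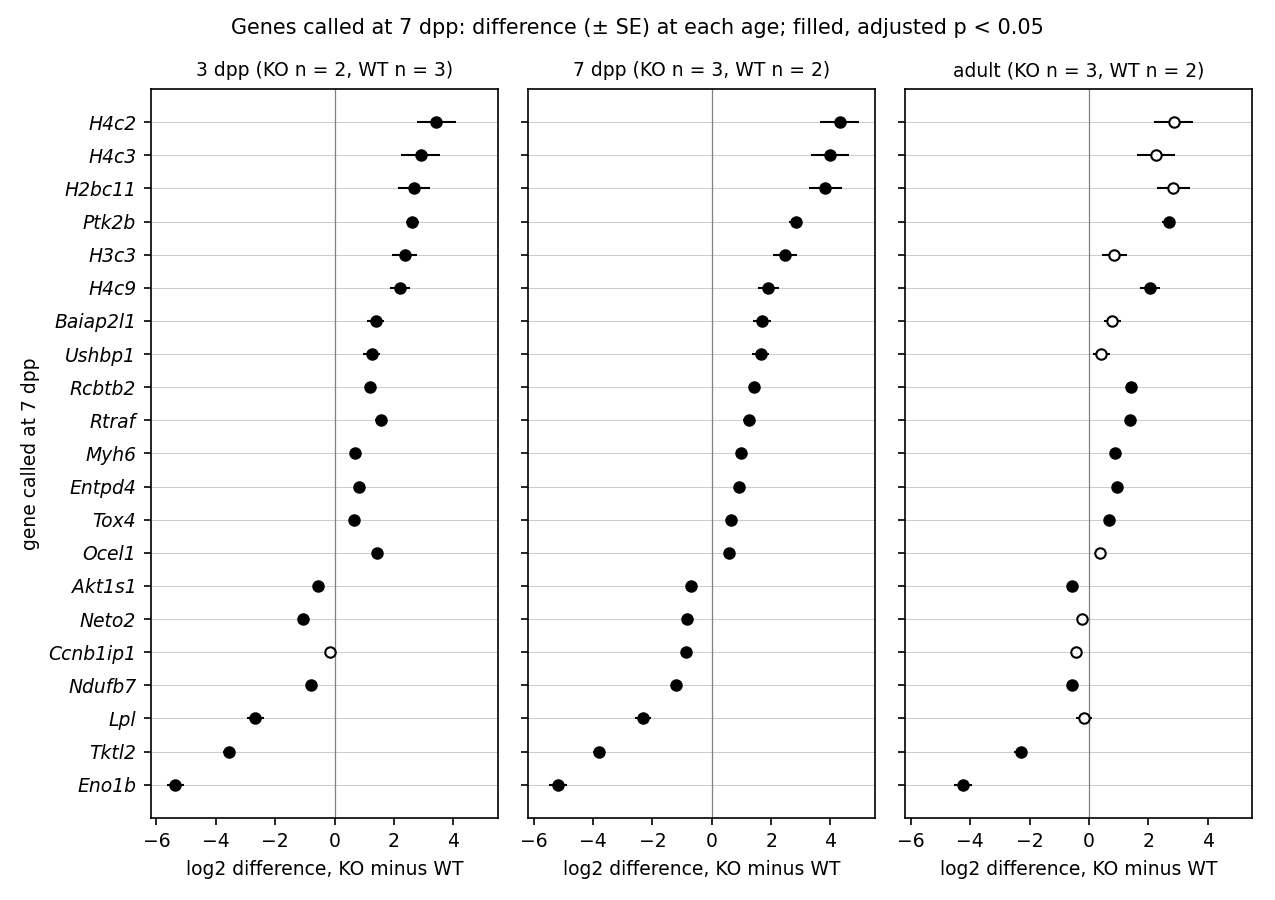
Log2 difference between KO and WT (points, with bars for the SE) for the 21 named genes that passed at 7 dpp, at 3 dpp, 7 dpp and in adults; filled points passed an adjusted p of 0.05 at that age. Each gene lies on the same side of 0 at all 3 ages; Lpl is close to 0 in adults (-0.16) and Ccnb1ip1 is at -0.17 at 3 dpp.

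The genes that passed lay unevenly over the genome. Chromosomes 8 and 14 held 13 of the 28, out of 1418 genes tested there, and all other placed genes, 14653 tested, held 13; the remaining 2 have no annotated position. On chromosome 14 the gene starts, in base pairs of GRCm38, were 19811402 for Rtraf, 50789249 for Ccnb1ip1, 52279146 for Tox4, 54941921 for Myh6, 66153257 for Ptk2b, 69337151 for Entpd4 and 73138745 for Rcbtb2. On chromosome 8 they were 66511740 for Tktl2, 68880555 for Lpl, 71371298 for Ocel1, 71384274 for Ushbp1, 83566758 for Ndufb7 and 85636718 for Neto2. On chromosome 8, 2 of these were higher and 4 lower in KO. On chromosome 14, 6 were higher and only 1, Ccnb1ip1, was lower. An unadjusted p below 0.01 was reached by 42 of 844 genes on chromosome 8 (4.98%) and by 35 of 574 on chromosome 14 (6.1%), beside 1.8% on the other chromosomes and 2.15% (381 genes) overall. In windows chosen after the values were seen, it was reached by 11.1% of 252 genes at 60 to 90 Mb of chromosome 8 and 2.36% on the rest of that chromosome. The shares were 8.04% of 336 genes at 40 to 80 Mb of chromosome 14 and 3.36% on the rest. Within 5 Mb of Akt1s1, 2 of 158 genes reached it (1.27%), and only Akt1s1 itself passed after adjustment. In adults 12 of these 158 genes reached it (7.59%) and 2 passed after adjustment, beside 4.44% reaching it on all chromosomes other than 8 and 14.

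**Figure D4:**
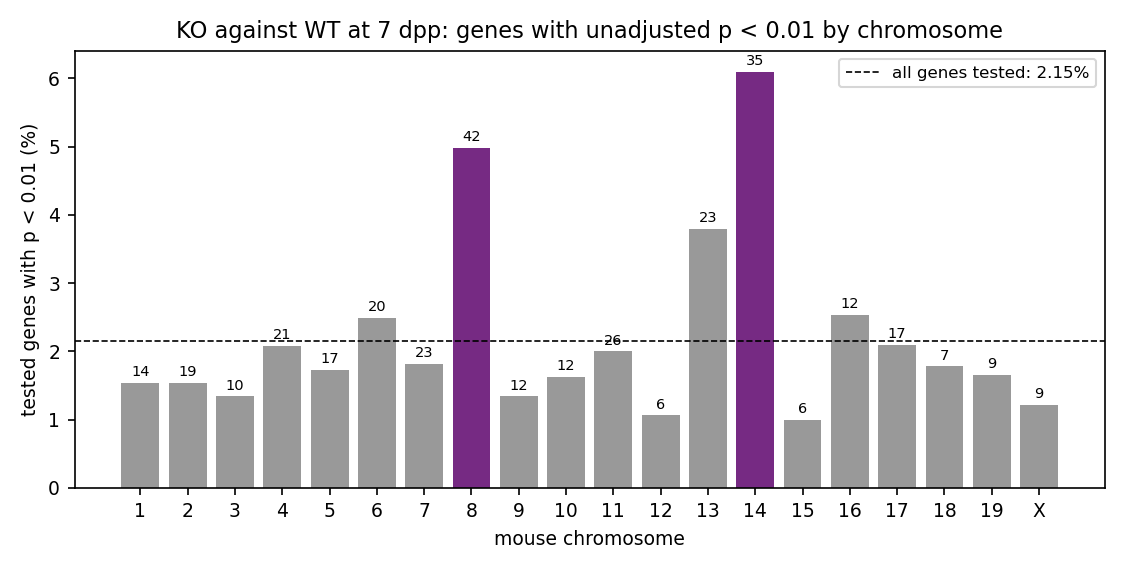
Share of tested genes with an unadjusted p below 0.01 between KO and WT at 7 dpp (vertical axis, percent) for chromosomes 1 to 19 and X, with the number of such genes above each bar and the share over all genes tested (2.15%) as a dashed line. Of the chromosomes drawn, 8 (4.98%) and 14 (6.1%), in purple, have the tallest bars, followed by 13 (3.8%). Y, where 1 of 14 genes tested (7.14%) reached it, is not drawn.

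Chromosomes 8 and 14 also held many of the genes that passed in adults, whose libraries do not enter the difference at 7 dpp but share its estimate of spread. There 23 of 48 genes that passed lay on chromosomes 8 and 14, and an unadjusted p below 0.01 was reached by 8.89% of their genes, beside 4.44% on the other chromosomes. These calls were partly the same genes, as 17 of the 48 had also passed at 7 dpp. Among the 23 were Ptk2b, Myh6, Rtraf, Tox4, Entpd4, Rcbtb2, Ndufb7 and Tktl2, which passed at both ages. At 3 dpp, where far more genes passed, 12.8% of the genes tested on chromosomes 8 and 14 passed, beside 10.3% on the other chromosomes. On chromosome 13, 5 of 605 genes passed at 7 dpp, all of them the histone genes described above. Without KO 4, the share of the genes that passed on chromosomes 8 and 14 was 20.95%, and in a fit of the 5 libraries alone it was 27.3%, beside 46.4% with all libraries. Why the changes cluster by position was not tested.

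Components of the mTOR pathway other than Akt1s1 did not pass at 7 dpp. An unadjusted p below 0.05 was reached by 6 of them, all higher in KO, beside 7.48% of all genes tested. All 60 of 63 listed components found in the files were expressed; 33 were higher and 27 lower in KO, with a median difference of 0.02, and 11 had KO libraries above and 4 below WT without overlap, beside 12.5% and 10.8% of all 15237 genes. Of the mTORC1 subunits, the kinase gene Mtor had 89.4, 88.8 and 80.8 in KO and 80.5 and 87.3 in WT, and Rptor, which encodes the raptor that PRAS40 binds, had 40.02, 38.8 and 42.9 in KO and 35.7 and 41.9 in WT. Both overlapped between genotypes. The 3 measured subunits of mTORC2, the sister complex that phosphorylates AKT, were all slightly lower (median -0.10). The growth factor arm, from PI3 kinase to AKT and the TSC complex, had 10 higher and 3 lower (median 0.10). The amino acid and lysosome arm had 9 higher and 12 lower (median -0.01), and downstream effectors 10 higher and 7 lower (median 0.04).

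Apart from Akt1s1, the components with the smallest p did not pass. Sesn2, a leucine-sensing inhibitor of mTORC1 signalling, had 46.3, 50.97 and 40.7 in KO and 32.3 and 38.5 in WT (0.37 ± 0.11, limma adjusted p = 0.366). Larp1, which represses translation of ribosomal protein transcripts when mTORC1 is inactive, had 104, 134 and 129.8 in KO and 99.4 and 96.8 in WT (0.31 ± 0.10, adjusted p = 0.428). Lamtor1, which anchors the Ragulator complex at the lysosome, had 248, 259.6 and 238 in KO and 194 in both WT libraries (0.36 ± 0.14, adjusted p = 0.572). In all 3 the KO libraries lay above WT without overlap.

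Gene groups of energy metabolism, growth and stress had medians close to 0. Of 75 oxidative phosphorylation genes 56 were lower in KO (median -0.06), with Ndufb7 the only one to pass. Of 76 cytosolic ribosomal protein genes 64 were lower (median -0.06) and 0 passed in limma. An unadjusted p below 0.05 was reached by 2 of them, beside 7.48% of all genes tested. Sterol and fatty acid synthesis had 17 of its 25 genes lower (median -0.12), among them Sc5d, a late cholesterol enzyme, with 34.1, 35.7 and 37.7 in KO and 51.9 and 47.4 in WT (-0.46 ± 0.10, adjusted p = 0.151). Glycolysis genes were higher in 13 of 20 cases (median 0.14), with Eno1b as the only one to pass, in the opposite direction. Of 34 lysosome and autophagy genes 24 were higher (median 0.06), 8 of them with KO libraries above WT without overlap (23.5%, beside 12.5% of all genes). Targets of the amino acid stress response were higher in 13 of 18 cases (median 0.08), and p53 targets in 10 of 14 (median 0.09), including the cell cycle inhibitor Cdkn1a with 6.06, 6.17 and 7.29 in KO and 2.72 and 3.52 in WT (0.87 ± 0.27, adjusted p = 0.422). Cell cycle genes were higher in 10 of 27 cases (median -0.02).

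Genes of undifferentiated spermatogonia tended to be higher in KO, unevenly over the KO libraries. Of 27 measured genes 22 were higher, and the median difference was 0.52 beside 0.00 over all genes. An unadjusted p below 0.05 was reached by 14 of the 27, all of them higher, beside 7.48% of all genes tested. In limma 0 passed after adjustment. Libraries did not overlap for 11 higher genes (40.7%, beside 12.5% of all genes) and 2 lower genes (7.41%, beside 10.8%). The mean deviation of the list from the 5-library mean was -0.20, 0.47 and 0.37 in KO 4, 5 and 6, against -0.49 and -0.16 in WT 2 and 3, so KO 4 lay within the range of WT. Without KO 4, an alternative chosen after seeing the data, 19 of 27 genes were higher without overlap (70.4%, beside 22.4% of all genes). Another 2 were lower without overlap (7.41%, beside 18.7% of all genes).

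The members with the smallest p show this spread. Pax7, a marker of rare cells with stem cell activity, had 1.70, 3.05 and 2.62 in KO and 0.763 and 1.10 in WT (0.82 ± 0.21, limma adjusted p = 0.263). Egr2, a zinc finger factor induced by growth factors, had 11.1, 36.9 and 20.3 in KO and 7.86 and 7.73 in WT (1.28 ± 0.35, adjusted p = 0.318). Cdh1, the E-cadherin of spermatogonial surfaces, had 9.69, 19.7 and 13.1 in KO and 5.05 and 8.66 in WT (0.93 ± 0.27, adjusted p = 0.374). Dusp6, a phosphatase that dampens ERK signalling and is itself induced by it, had 35.2, 77.1 and 45.7 in KO and 30.9 and 23.96 in WT (0.85 ± 0.27, adjusted p = 0.428). KO 5 was the highest library for all 4 genes and KO 4 the lowest of the KO libraries. Receptors and targets of GDNF, the growth factor of spermatogonial stem cells, are named after their values were seen. Gfra1, a subunit of the GDNF receptor, had 11.8, 89.7 and 45.4 in KO and 12.8 and 18.7 in WT, and its partner Ret had 28.4, 99.7 and 63.5 in KO and 24.99 and 32.6 in WT. Etv5, a transcription factor induced by GDNF, had 10.4, 91.9 and 47.2 in KO and 16.1 and 19.7 in WT. In these 3 genes KO 5 and KO 6 were above WT while KO 4 was within or below the WT range. Zbtb16, the PLZF factor of undifferentiated spermatogonia, had 106, 128 and 141 in KO and 78.5 and 95.7 in WT, without overlap (0.52 ± 0.16, adjusted p = 0.428). The 5 members lower in KO were Pou5f1 (-0.73), Taf4b (-0.17), Sohlh1 (-0.16), Neurog3 (-0.05) and Upp1 (-0.01). Of these, Taf4b and Sohlh1 had KO libraries below WT without overlap. At 3 dpp the median difference of the list was 0.09, and in adults -0.36. As these are bulk samples, a larger share of a cell type and more RNA per cell cannot be told apart.

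Immediate early and dissociation stress genes, many of which are induced within minutes of a stimulus, were also mostly higher in KO. Of 21 measured 20 were higher in KO (median 0.73), 17 without overlap of the libraries (81.0%, beside 12.5% of all genes). An unadjusted p below 0.05 was reached by 12, beside 7.48% of all genes tested, although 0 passed in limma. The mean deviation of the list was 0.01, 0.48 and 0.43 in KO 4, 5 and 6 and -0.33 and -0.58 in WT 2 and 3. Its summed signal was 1699, 2243 and 2114 in KO and 1373 and 1287 in WT. Without KO 4, 19 of the 21 were higher without overlap (90.5%, beside 22.4% of all genes). Socs3, an inhibitor of cytokine signalling, had 18.5, 29.4 and 35.5 in KO and 12.0 and 13.6 in WT (1.02 ± 0.21, adjusted p = 0.108). Egr1 had 196, 304 and 271 in KO and 157 and 147 in WT (0.73 ± 0.20, adjusted p = 0.343), and Egr3 had 3.93, 8.45 and 8.60 in KO and 2.43 and 2.11 in WT (1.23 ± 0.29, adjusted p = 0.186). Egr2 belongs to both lists. The part of these genes in the shift of the undifferentiated list was not tested. Their median difference was -0.23 at 3 dpp and -0.77 in adults.

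**Figure D5:**
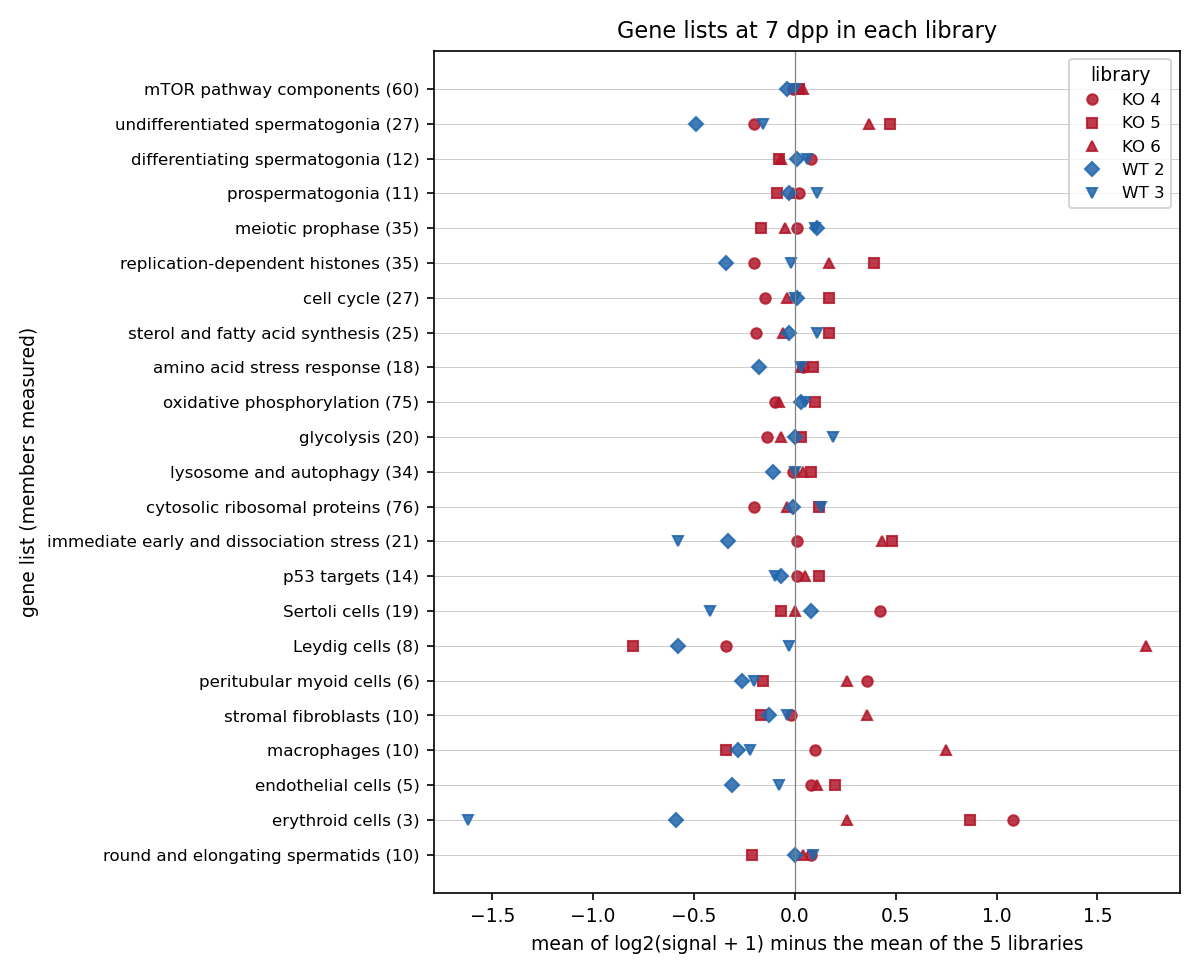
Mean deviation of each gene list from the 5-library mean on the log2(signal + 1) scale (horizontal axis) in each KO (red) and WT (blue) library of 7 dpp, with the number of measured members beside each list. The immediate early list has all KO points right of both WT points and the meiotic list all KO points left of them; for undifferentiated spermatogonia KO 4 (-0.20) lies between WT 2 (-0.49) and WT 3 (-0.16).

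Genes of meiotic prophase tended to be lower in KO. Of 35 measured 24 were lower (median -0.14), and 12 were lower without overlap (34.3%, beside 10.8% of all genes), while 0 were higher without overlap. Without KO 4 it was 15 lower (42.9%, beside 18.7% of all genes) and 1 higher. Ccnb1ip1, described above, was the only one to pass. Syce2, of the central element of the synaptonemal complex, had 316, 240.5 and 269 in KO and 344 and 357 in WT (-0.36 ± 0.10, limma adjusted p = 0.351), and Syce1, of the same structure, had 83.2, 89.6 and 83.8 in KO and 101 and 104 in WT (-0.26 ± 0.09, adjusted p = 0.517). Meiob, a single-strand DNA binding protein of meiotic recombination, had 1.39, 1.52 and 1.79 in KO and 3.68 and 4.72 in WT (-1.02 ± 0.33, adjusted p = 0.435). The KO libraries were below WT in each. Syce2 (start 84872111 on chromosome 8) and Ccnb1ip1 (start 50789249 on chromosome 14) lie in the windows of these chromosomes described above. The part of position in the shift of this list was not tested. With trends of transcript length and GC content removed, the median of the list was -0.02. The medians at 3 dpp and in adults were -0.17 and 0.14.

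Genes of differentiating spermatogonia showed no common shift. Of 12 measured 8 were lower (median -0.06). Sohlh2, a helix-loop-helix factor that drives early differentiation, had 150.2, 149 and 148 in KO and 185 and 201 in WT (-0.36 ± 0.10, limma adjusted p = 0.324), with all KO libraries below WT. Ccnd2, a cyclin of differentiating spermatogonia, had 78.3, 142 and 108 in KO and 80.7 and 69.4 in WT (0.50 ± 0.19, adjusted p = 0.584). Kit, the receptor that marks differentiation, named after its values were seen, had 180.2, 123 and 123 in KO and 138 and 135 in WT, which overlapped. Of 11 prospermatogonial genes 8 were lower (median -0.08), and of 10 spermatid genes 6 were higher (median 0.05).

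Markers of somatic cells were mostly higher in KO, but 0 passed in limma. An unadjusted p below 0.05 was reached by 3, beside 7.48% of all genes tested. All 19 Sertoli cell genes were higher in KO (median 0.27), but for none were the libraries free of overlap, and KO 4 had the highest summed signal. Of 8 Leydig cell genes 7 were higher (median 0.44), led by KO 6, whose summed signal was 209.8 against 72.2 and 67.4 in KO 4 and KO 5 and 68.6 and 74.4 in WT. The summed signal of 10 macrophage genes was likewise highest in KO 6, at 26.0, 21.3 and 54.1 in KO and 19.7 and 21.4 in WT (median 0.43). Medians were 0.36 for 6 peritubular myoid genes, 0.13 for 10 stromal genes and 0.26 for 5 endothelial genes, among them Cdh5, the cadherin of endothelial junctions, with 4.99, 4.47 and 4.37 in KO and 2.10 and 2.67 in WT (0.73 ± 0.32, adjusted p = 0.642). The 3 erythroid transcripts measured were higher in sum in every KO library, at 53.7, 46.4 and 25.8 in KO and 11.3 and 3.31 in WT. The globin genes Hba-a1 (2.66 ± 1.00, adjusted p = 0.552) and Hbb-b1 (2.67 ± 0.93, adjusted p = 0.518) carried this difference. The part of these cells in the differences above was not tested.

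A few genes had large differences without overlap of the libraries and did not pass. Higher in KO were Igfbp7, an insulin-like growth factor binding protein (9.97, 10.2 and 11.2 in KO, 1.62 and 3.35 in WT; limma adjusted p = 0.503), and the stress-induced factor Atf3 (12.3, 10.8 and 9.76 in KO, 4.64 and 1.45 in WT; adjusted p = 0.497). Myo7a, an unconventional myosin, had 51.2, 23.7 and 29.1 in KO and 11.1 and 8.54 in WT (1.65 ± 0.52, adjusted p = 0.428). Lower in KO was Fabp5, a fatty acid carrier, with 3.57, 3.45 and 3.88 in KO and 13.96 and 11.03 in WT (-1.53 ± 0.31, adjusted p = 0.0838). Clgn, a chaperone of the endoplasmic reticulum of male germ cells encoded on chromosome 8, had 16.8, 12.4 and 12.5 in KO and 30.8 and 31.02 in WT (-1.11 ± 0.26, adjusted p = 0.151). At 3 dpp and in adults the differences were 0.13 and -1.54 for Igfbp7, -0.51 and -0.93 for Atf3 and 0.33 and 0.17 for Myo7a, none of which passed. Fabp5 and Clgn were also lower at 3 dpp (-0.94 and -1.10) and in adults (-1.40 and -0.59).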

How the data were processed

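Per the labels' protocols, testes were digested with collagenase, DNase I and trypsin, GFP-positive cells were sorted, and libraries were made from total RNA with an mRNA-seq kit. The deposited files hold a signal per gene name, 1 column per library. The submitters' processing notes name mm10, kallisto, Trim Galore and DESeq2, while versions, roles and annotation are not stated in the sources used here. That deposited signal was tested for its unit: after rescaling to a total of 1e6, values fell on steps of 0.01 within 0.00055, as TPM values do, so read numbers cannot be recovered and values carry no counting interval. Totals at 7 dpp ran from 969003 to 1075136, and 0 pairs of libraries were identical.

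Limma-trend (limma 3.58.1, R 4.3.3) was fitted to log2(signal + 1) of all 15 libraries with 6 group means, for 17746 names whose signal reached 1 in 2 or more libraries (9 residual degrees of freedom, prior 4.25). This scale understates changes of low genes. The p-values were adjusted by Benjamini-Hochberg at 0.05. Gene names were matched to RefSeq GRCm38.p6 by symbol (15694), synonym (5116) or gene number (2830) and are given by their current symbol; 22 names read as dates. Transcript copies were sought with BLAST 2.17.0 in GENCODE M21 at 90% identity over 50% of the length. Named were Akt1s1, Pou5f1, every gene that passed, the 12 highest and 12 lowest differences without overlap at a mean signal of at least 5 (those not passing as values, the larger ones in the text), and, of each list, up to 4 members with the smallest unadjusted p, in the text only below 0.05. Ddx4, Mtor, Rptor, Zbtb16, Gfra1, Ret, Etv5, Taf4b, Sohlh1, Neurog3, Upp1, Kit, Psmb5, Polr1d, Eno1, BC004004 and the provisional models were named after their values were seen. Members and lists were chosen with earlier results of these data known, and no list was tested. Alternatives covered the pseudocount, filter, scaling, trend, library weights, length and GC trends and each library left out.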

Additional observations from a re-analysis of the deposited data

Results flagged for a closer look

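The effect of the genotype differed between 7 dpp and 3 dpp (limma interaction, adjusted p below 0.05) for 2 of the genes named above, as it did for 355 of 17746 genes tested (2.0%). For Ocel1 the effect at 7 dpp was smaller than that at 3 dpp by 0.85 ± 0.14, or -0.85 on the log2 scale (adjusted p = 0.0176); its signal was 57.9, 56.7 and 51.7 in KO and 34.3 and 38.9 in WT at 7 dpp, and 67.7 and 61.6 in KO and 22.4, 21.3 and 26.2 in WT at 3 dpp. For Sesn2 the effect at 7 dpp exceeded that at 3 dpp by 0.65 (adjusted p = 0.0473); its signal was 46.3, 50.97 and 40.7 in KO and 32.3 and 38.5 in WT at 7 dpp, and 30.3 and 31.6 in KO and 37.2, 40.8 and 35.7 in WT at 3 dpp.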

How the results depend on the processing

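No paired analysis was made because the library titles, which give genotype, age and a running number, link no KO library to a WT library. The 28 genes that passed at 7 dpp became 17 (8 higher, 9 lower) without the mean-variance trend. They became 176 (115 higher, 61 lower) with estimated library weights, which included all 28. Among the KO libraries of 7 dpp these weights were 6.81 for KO 6, 0.43 for KO 4 and 0.598 for KO 5. The count ranged from 13 to 105 with a KO library left out. Without a filter 26 passed, 10 higher and 16 lower, and the split also turned without WT 3 (6 and 7) and KO 5 (9 and 10). The difference of Akt1s1 was little changed but not called in a fit of the 5 libraries of 7 dpp alone (-0.69, adjusted p = 0.304) and without the trend (-0.69, 0.062), and ranged from -0.89 to -0.48 with a library left out. The count of the 28 genes whose effect differed between 3 and 7 dpp (1) was 2 with a minimum signal of 5, 3 with library weights, 2 with length and GC trends removed, and 0 to 3 with a library left out. The share of genes that passed on chromosomes 8 and 14 (46.4%) was 27.3% in the fit of 5 libraries alone, 26.1% with library weights, and 20.95% to 47.4% with a library left out. Causes were not tested. No single difference that passed changed sign, and of the values of single named genes 964 kept their side of the threshold, 99 lost it and 18 gained it; of list medians 345 moved by less than the spread between libraries and 23 by more. With 3 and 2 libraries and an unknown depth, changes of low genes cannot be weighed by counting error.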
